A study of Mus musculus with 77 samples.

Results

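The insulin-like growth factor (IGF) genes measured here were the ligands *Igf1* and *Igf2*, the receptors *Igf1r* and *Igf2r*, and the binding proteins *Igfbp2* to *Igfbp7*. They were chosen by name: every probe that is not a control and whose transcript belongs to one of these 10 genes was taken, which gave 14 probes of 55681 and 10 genes of the 21154 with a symbol on the array. *Igf1* had 4 of these probes, *Igfbp2* had 2 and each of the other genes had 1.

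The retinas came from 77 C57BL/6 mice, both retinas of a mouse pooled, with 1 array per mouse. In the model of oxygen-induced retinopathy (OIR), litters were drawn by lot to breathe 75% or 21% oxygen from postnatal day 7 (P7) until P12, and both kinds were then kept in room air. The P12 retinas, taken at the end of hyperoxia, came from 13 OIR and 12 control mice. The P17 retinas, taken when new vessels grow most in this model, came from 13 OIR and 12 control mice. The P28 retinas, taken during regression with some areas of new vessels left, came from 13 OIR and 14 control mice. The labels name no allele and no drug. The litter of each mouse is not given. The study counted fewer litters than mice in each OIR group, so some mice of a group were littermates. Oxygen was assigned by litter, but the p-values measure the spread between mice and may be too small.

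IGF1 and IGF2 are secreted growth factors that act mainly through the IGF1 receptor, a tyrosine kinase that signals through PI3K, AKT and MAP kinases. The IGF2 receptor has no kinase and carries IGF2 to lysosomes. In tissue fluid most IGF is held by binding proteins, which lengthen its life, keep it from the receptor or release it after cleavage. IGF1 is known as a permissive factor for the growth of retinal vessels, and low IGF1 in the blood of preterm infants goes with retinopathy.

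Each array carried retina RNA and a universal mouse reference RNA in separate dyes, and every value below is the log2 ratio of retina over reference after background correction with an offset of 50 and loess normalization. The labels assign Cy5 to the retina, but 3 genes of rod photoreceptors, *Pde6b*, *Gnat1* and *Sag*, gave more signal in Cy3 on 77 of 77 arrays, so Cy3 was read as the retina and all signs below are the reverse of the labelled direction. A ratio against the reference is no measure of how one gene compares with another. The offset draws the ratios of dim probes toward 0, so differences of dim probes are understated. A probe was called at an adjusted p under 0.05, with the Benjamini-Hochberg adjustment over all 55681 probes, and a gene was represented by its brightest probe.

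Brightness differed from array to array. The number of probes whose retina signal stood well above background, by the scanner's flag, ran from 13757 to 34306. The median was 21096 and 20050 in control and OIR mice on P12, 20843 and 20283 on P17, but 32168 and 32884 on P28. The brighter arrays lay on slides 4, 5, 6 and 9, which held 32 arrays with 20904 to 34306 such probes, against 13757 to 24707 on the 45 arrays of the other slides. Slides 4, 5 and 6 carried 8 of 14 control and 11 of 13 OIR arrays of P28, but 3 control and 0 OIR arrays of P17. As a check of the tissue, the mean ratio of 7 Mueller glia markers was at least 1.94 on every array. That of 6 fibroblast and scleral markers was at most −2.29. The mean of 8 pigment epithelium markers ran from 0.057 to 1.43. That of 8 lens markers ran from 0.00041 to 3.58, with the highest values on P28. The presence of other eye tissue was not tested.

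OIR and control mice were compared on each day to see which IGF genes responded to the oxygen exposure and its end. *Igfbp5*, which encodes a binding protein that also attaches to extracellular matrix, was the member that rose. On P17 the *Igfbp5* log2 ratio ranged from 0.11 over a median of 0.63 to 1.10 in control mice and from 0.94 over a median of 1.27 to 1.46 in OIR mice. All 13 OIR mice lay above the control median, and the groups overlapped in their margins. The means were 0.63 ± 0.26 (SD, n = 12) and 1.25 ± 0.18 (SD, n = 13), a difference of 0.62 (SE 0.086, 95% interval 0.44 to 0.79, adjusted p = 0.000113) or 1.53-fold. *Igfbp5* was the only member called on P17, 1 of 10 genes, where 1.13% of all probes were called and 2.3% of all genes by their brightest probe. An unadjusted p under 0.05 by limma was found for 3 of the 10, and for 5772 of all 55681 probes. The median difference over the 10 members was 0.12, and over all 21154 genes it was −0.0024.

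**Figure D1:**
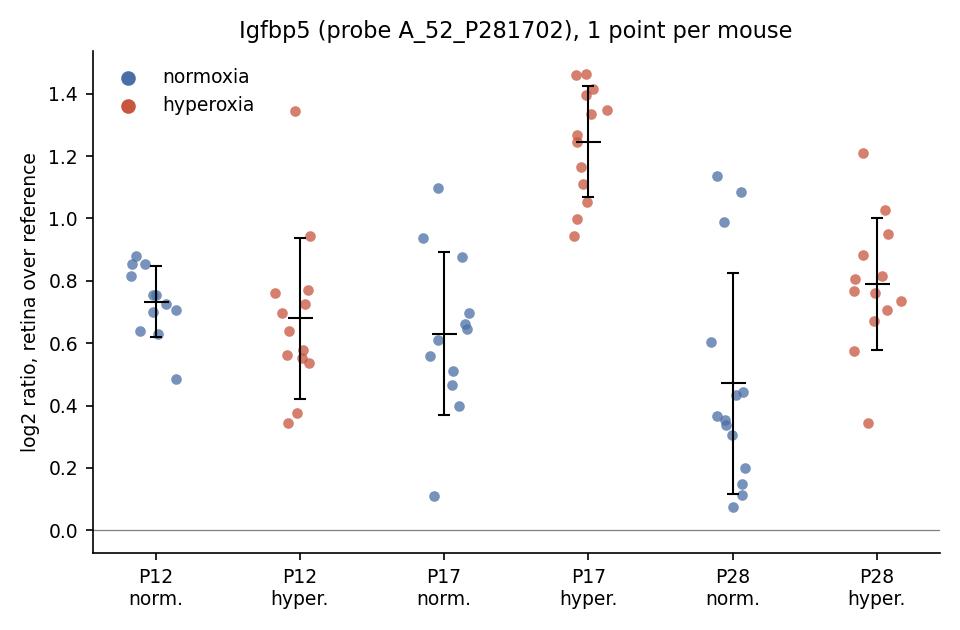
Log2 ratio of retina over reference of *Igfbp5* on the y axis for each of the 77 mice by day and oxygen group, with bars for the mean and SD. The 13 OIR mice of P17 lie between 0.94 and 1.46 and the 12 control mice of that day between 0.11 and 1.10.

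The rise of *Igfbp5* on P17 was seen on each of the 6 slides that held mice of both groups, with differences between 0.48 and 0.77. It was called under all 13 alternatives, with differences between 0.51 and 1.17. In the ratios as deposited, which carry no offset, it was 1.17 (SE 0.14), in the retina channel alone 0.81, and in the reference channel −0.02. Without the 4 slides of brighter arrays it was 0.71 (SE 0.084, adjusted p = 0.000126).

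On P12, at the end of hyperoxia, the *Igfbp5* ratio ranged from 0.49 over 0.74 to 0.88 in control mice and from 0.35 over 0.64 to 1.34 in OIR mice, so that the groups lay over each other. The difference was −0.05 (SE 0.079, 95% interval −0.22 to 0.11, adjusted p = 0.9997). By limma no IGF gene was called on P12, where 0.0233% of all probes were called, and 0 of the 10 had an unadjusted p under 0.05. The oxygen difference of *Igfbp5* changed between P12 and P17 by 0.67 (SE 0.137, 95% interval 0.40 to 0.94, adjusted p = 0.00245), and it was the only member called in this contrast, where 0.48% of all probes were called.

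On P28 the *Igfbp5* ratio ranged from 0.07 over 0.36 to 1.14 in control mice and from 0.34 over 0.77 to 1.21 in OIR mice. All but 1 of the 13 OIR mice lay above the control median, but the control mice covered nearly the whole range of both groups. The difference was 0.32 (SE 0.11, 95% interval 0.09 to 0.54, adjusted p = 0.564). On slides 4, 5 and 6, which held most arrays of that day, it was higher in OIR mice on each slide, by 0.15 to 0.32, and over these slides together by 0.21 (SE 0.124, adjusted p = 0.636). By limma no IGF gene was called on P28, where 0.0611% of all probes were called, and 1 of 10, *Igfbp5*, had an unadjusted p under 0.05. *Igfbp4* was called without slides 4, 5, 6 and 9, at 0.41 (SE 0.098, adjusted p = 0.0455), but 8.2% of all probes were called there, and the 5 control and 2 OIR arrays that were left shared no slide. The change of the oxygen difference from P17 to P28, −0.30 (SE 0.134, adjusted p = 0.324), and that from P12 to P28, 0.37 (SE 0.134, adjusted p = 0.742), were not called. No member was called in these contrasts, where 0.278% and 0.0395% of all probes were called, and 4 and 1 of the 10 had an unadjusted p under 0.05.

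By mean, the 6 groups ordered for *Igfbp5* as P17 OIR (1.25), P28 OIR (0.79), P12 control (0.73), P12 OIR (0.68), P17 control (0.63) and P28 control (0.47). The step from P17 OIR to P28 OIR was called. The 5 lower groups overlapped one another in their ranges, and the comparisons tested among them were not called. In control mice the difference of *Igfbp5* from P17 to P28 was −0.16 (SE 0.095, adjusted p = 0.286), and it was called as lower under 4 of 13 alternatives. It was −0.60 in the deposited ratios (adjusted p = 0.00884), −0.57 with an offset of 0, −0.38 in the retina channel alone and −0.34 with array brightness as a covariate.

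*Igfbp5* and *Igfbp2* lie next to each other on chromosome 1 in GRCm38.p6, *Igfbp2* from 72824480 to 72852474 and *Igfbp5* from 72858065 to 72874865. Their upstream sequences are shown because they had the 2 largest positive differences on P17 among the 10 members, although *Igfbp2* was not called. Each line gives the 250 bases before the gene start from RefSeq, 5′ to 3′ on the strand of the gene, with matches to the core of the hypoxia response element (ACGTG or GCGTG, either strand) in capitals. The *Igfbp5* sequence lies at chr1:72874866-72875115 on the minus strand and the *Igfbp2* sequence, the first of 2 starts listed, at chr1:72824230-72824479 on the plus strand.
Igfbp5: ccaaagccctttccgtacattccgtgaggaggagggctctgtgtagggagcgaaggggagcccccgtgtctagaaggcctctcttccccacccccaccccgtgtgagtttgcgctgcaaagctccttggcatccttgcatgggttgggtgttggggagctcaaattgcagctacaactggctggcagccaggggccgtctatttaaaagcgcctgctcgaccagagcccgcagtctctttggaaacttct
Igfbp2: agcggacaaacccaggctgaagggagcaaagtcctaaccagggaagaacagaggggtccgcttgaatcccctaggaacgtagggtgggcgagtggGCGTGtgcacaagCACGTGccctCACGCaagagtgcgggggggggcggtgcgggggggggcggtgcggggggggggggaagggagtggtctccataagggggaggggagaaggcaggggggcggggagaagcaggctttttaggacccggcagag
The *Igfbp5* sequence held no match and that of *Igfbp2* held 4 that overlap in part, since the palindrome CACGTG counts once on each strand. Of the 14 upstream sequences listed for the 10 members, 7 held the core motif, in 7 genes, and it is found in 38.6% of all 32851 upstream sequences of this length. The forkhead motif GTAAACA, either strand, was in none of the 14 and in 3.17% of all. Such matches are a description of letters and not of bound sites.

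Markers of other cell types were set beside *Igfbp5* on P17, where 2.3% of all genes were called. Of 11 endothelial markers 2 rose and none fell, and the list's mean log2 ratio ranged from 0.10 to 0.61 in control mice and from 0.40 to 0.98 in OIR mice. Of 9 mural cell markers 2 rose, *Cspg4* by 0.73 and *Notch3* by 0.63, with list means of −0.86 to −0.34 and −0.54 to −0.04. Of 7 markers of astrocytes and reactive glia 4 rose, including *Gfap* by 0.97 and *Vim* by 1.19, with list means of −0.59 to −0.44 and −0.16 to 0.61, which did not overlap. Of 9 markers of microglia and macrophages 3 rose, with list means of −0.71 to −0.33 and −0.38 to −0.08. Of the endothelial, mural, glial and microglial lists, only *Pax2* of the glial one was well above background on 0 arrays. Of 3 red blood cell markers 1 rose, with list means of 0.28 to 0.78 and 0.48 to 1.78. Of 8 pigment epithelium and 8 lens markers 1 each fell, with median differences of −0.27 and −0.12. Of 7 Mueller glia markers 0 passed the test, with a median difference of −0.35. Of 6 fibroblast and scleral markers 0 passed, but their median difference was 0.43. The medians were 0.86 for reactive glia, 0.30 for red blood cells, 0.24 for mural cells, 0.19 for microglia and 0.11 for endothelial cells. Of 7 rod markers 0 passed, with a median of 0.03. These lists were not tested as groups. The part of these cell types in the *Igfbp5* value was not tested. In whole retina, more cells of a type and more RNA per cell cannot be told apart.

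Among 11879 genes well above background on at least 50% of the arrays, the pattern of *Igfbp5* over the 77 arrays was most like that of *Ndufa4l2* (r = 0.741), a mitochondrial protein known to be induced in low oxygen, *Pde2a* (r = 0.738), a cyclic nucleotide phosphodiesterase, and *Flna* (r = 0.738), the actin crosslinker filamin A. Within groups the correlations were 0.390, 0.510 and 0.420. All points share the reference and the array with its brightness, so these values are given as a description. On P17 *Ndufa4l2* rose by 2.03, *Flna* by 1.02 and *Pde2a* by 0.40, and on P28 *Ndufa4l2* was still higher by 0.79 (SE 0.066, adjusted p = 8.18e-08).

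*Igfbp2*, a binding protein known from glia and developing nervous tissue, had the second largest positive difference on P17 and did not pass the test. The ratio of its brighter probe (A_66_P135391) ranged from −1.40 over −0.91 to −0.62 in control mice and from −0.94 over −0.54 to −0.07 in OIR mice. The control median was exceeded by 11 of 13 OIR mice, and the groups overlapped. The difference was 0.35 (SE 0.097, 95% interval 0.15 to 0.55, adjusted p = 0.0929), and that of the other probe (A_55_P2056729) was 0.36 (SE 0.122, adjusted p = 0.217). *Igfbp2* was called under 6 of 13 alternatives, among them the deposited ratios, by 0.62 (adjusted p = 0.0122), and the retina channel alone, by 0.45 (adjusted p = 0.0249). It was not called without slides 4, 5, 6 and 9, where the difference was 0.21 (adjusted p = 0.473). On P12 and P28 the differences were 0.08 (SE 0.087) and 0.11 (SE 0.070).

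**Figure D2:**
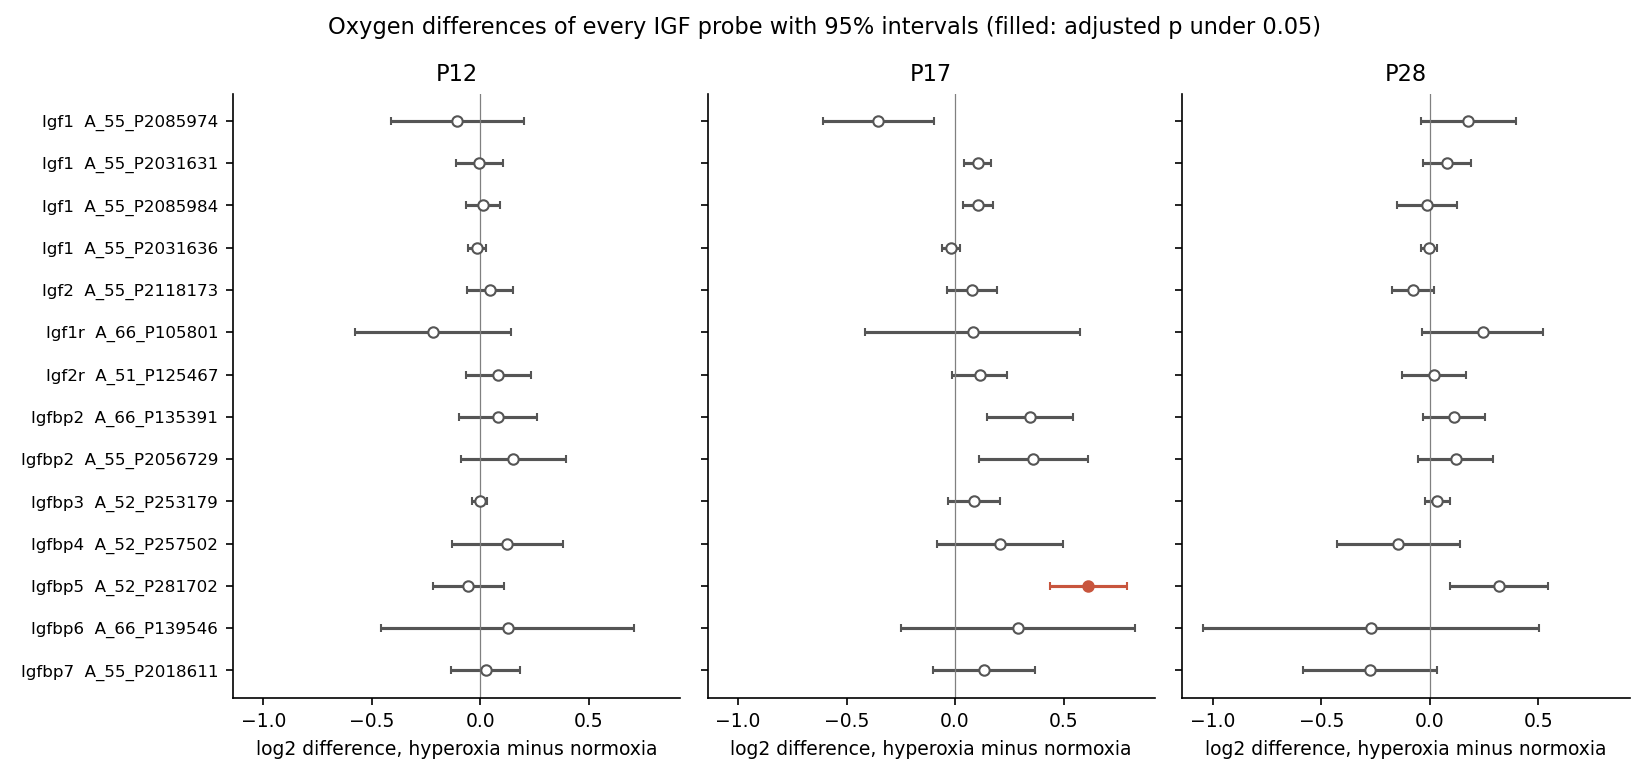
Log2 difference of OIR (hyperoxia) minus control (normoxia) on the x axis with its 95% interval for each of the 14 IGF probes, in a panel for each day. *Igfbp5* on P17 is the 1 filled point, and the 4 *Igf1* probes of P17 lie on both sides of 0.

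The 4 *Igf1* probes, all assigned to the same transcript by the array design, did not behave as one gene. On P17 the brightest probe (A_55_P2085974) ranged from 0.08 over 0.35 to 1.22 in control mice and from −0.26 over 0.15 to 0.69 in OIR mice. Only 2 of the 13 OIR mice exceeded the control median, and the difference was −0.35 (SE 0.123, 95% interval −0.61 to −0.10, adjusted p = 0.238). It was negative on each of the 6 slides with both groups, between −0.46 and −0.04. On the same arrays probe A_55_P2031631 ranged from −0.41 over −0.25 to −0.10 in control mice and from −0.24 over −0.15 to −0.04 in OIR mice. All 13 OIR mice lay above the control median, by a difference of 0.10 (SE 0.030, adjusted p = 0.118). It was positive on each of the 6 slides. Probe A_55_P2085984 also gave 0.10 (SE 0.033, adjusted p = 0.172), and A_55_P2031636 gave −0.02 (SE 0.021, adjusted p = 0.775). No *Igf1* probe was called, so that no direction of *Igf1* on P17 was established. The brightest probe was called as lower in the retina channel without the reference, at −0.47 (adjusted p = 0.0200), and with array brightness as a covariate, at −0.31 (adjusted p = 0.0108). With the 4 probes averaged the difference was −0.04 (adjusted p = 0.684).

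**Figure D3:**
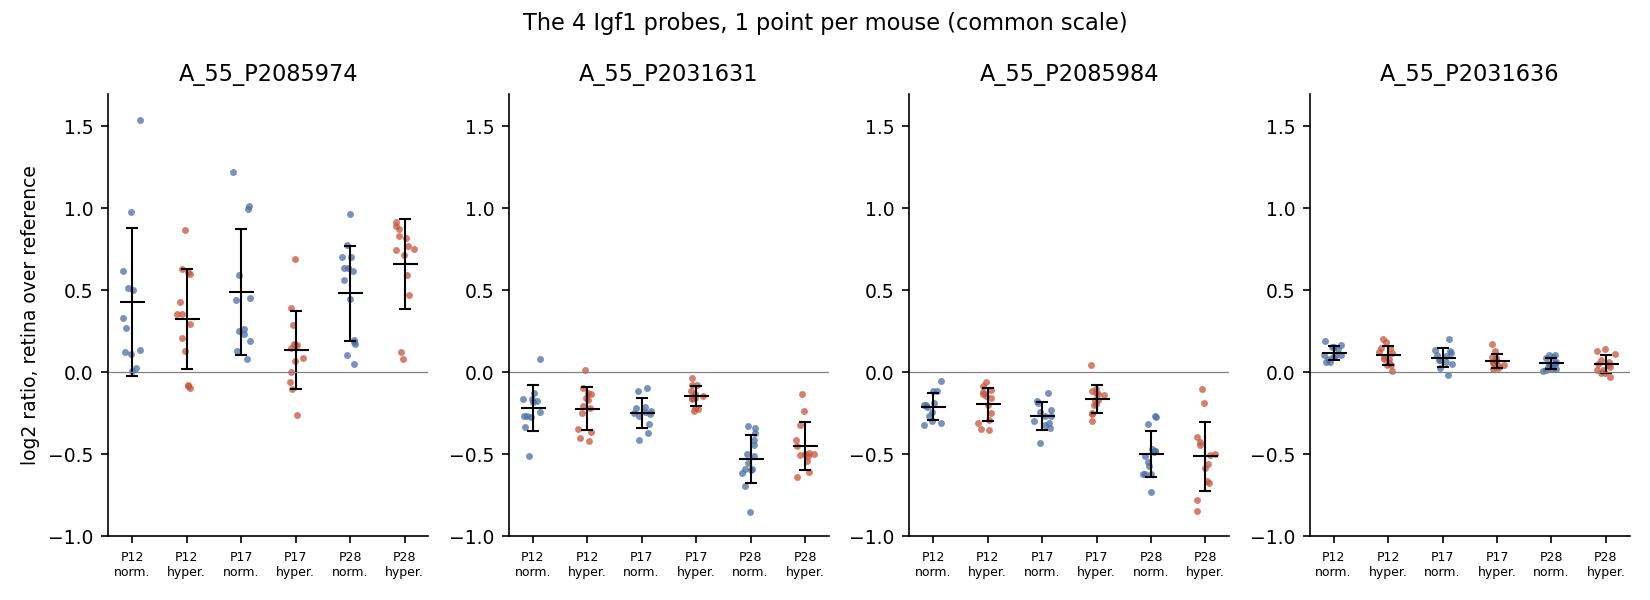
Log2 ratio of retina over reference on a common y axis for the 4 *Igf1* probes, with a point for each of the 77 mice and bars for the mean and SD of each group. From P17 to P28 in OIR mice the brightest probe goes up while A_55_P2031631 and A_55_P2085984 go down.

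*Igf2*, the fetal growth factor, gave ratios near 0 and was well above background in the retina channel on 57 of 77 arrays. Its group means lay between −0.24 and −0.02. The differences were 0.05 (SE 0.051) on P12, 0.08 (SE 0.056) on P17 and −0.08 (SE 0.047) on P28, none of them called.

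Both receptors were well above background on 77 of 77 arrays. The ratio of *Igf1r*, the signalling receptor, had group means between 1.12 and 1.59 and a wide spread, with SDs up to 0.76. In the control mice of P17 it ranged from 0.43 over 1.17 to 2.69, and in the OIR mice from 1.10 over 1.36 to 2.55. The difference of 0.08 had a 95% interval of −0.41 to 0.58, which leaves room for differences in either direction. On P12 only 1 of 13 OIR mice exceeded the control median (difference −0.22, SE 0.175, adjusted p = 0.9997), and on P28 11 of 13 did so (difference 0.24, SE 0.135, adjusted p = 0.686). The ratio of *Igf2r*, the clearance receptor, lay between −1.12 and −0.82 in the group means and was more even, with an oxygen difference of 0.11 (SE 0.061, 95% interval −0.01 to 0.24, adjusted p = 0.542) on P17.

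The other binding proteins were not called in any oxygen comparison. *Igfbp4*, a soluble inhibitor of IGF that is cleaved by the protease PAPP-A, had differences of 0.13 (SE 0.124), 0.21 (SE 0.140) and −0.15 (SE 0.137) on P12, P17 and P28. *Igfbp6*, which binds IGF2 in preference, had 0.13 (SE 0.283), 0.29 (SE 0.261) and −0.27 (SE 0.376), the widest errors of all members, with 1 OIR mouse of P28 lacking a value. One control mouse of P28 had an *Igfbp6* ratio of −0.09, where the median of its group was −3.42, and without it the difference of that day was −0.06 (SE 0.314). With slide as a block it was 0.019 (SE 0.080). *Igfbp7*, a matrix protein of vessel walls with low affinity for IGF, had 0.02 (SE 0.077), 0.13 (SE 0.114) and −0.28 (SE 0.151). *Igfbp4* and *Igfbp7* were well above background on 48 and 46 of 77 arrays.

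*Igfbp3*, the main carrier of IGF in blood, was near the limit of detection. It was well above background in the retina on 21 of 77 arrays, on 0 of 12 control and 2 of 13 OIR arrays of P17, and on 18 of the 27 arrays of P28. On P17 the ratio ranged from −0.13 over −0.06 to 0.06 in control mice and from −0.11 over −0.01 to 0.65 in OIR mice, and 1 OIR mouse stood apart at 0.65. The difference was 0.09 (SE 0.058, adjusted p = 0.616), and no fold is given since most arrays of both groups were not well above background.

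**Figure D4:**
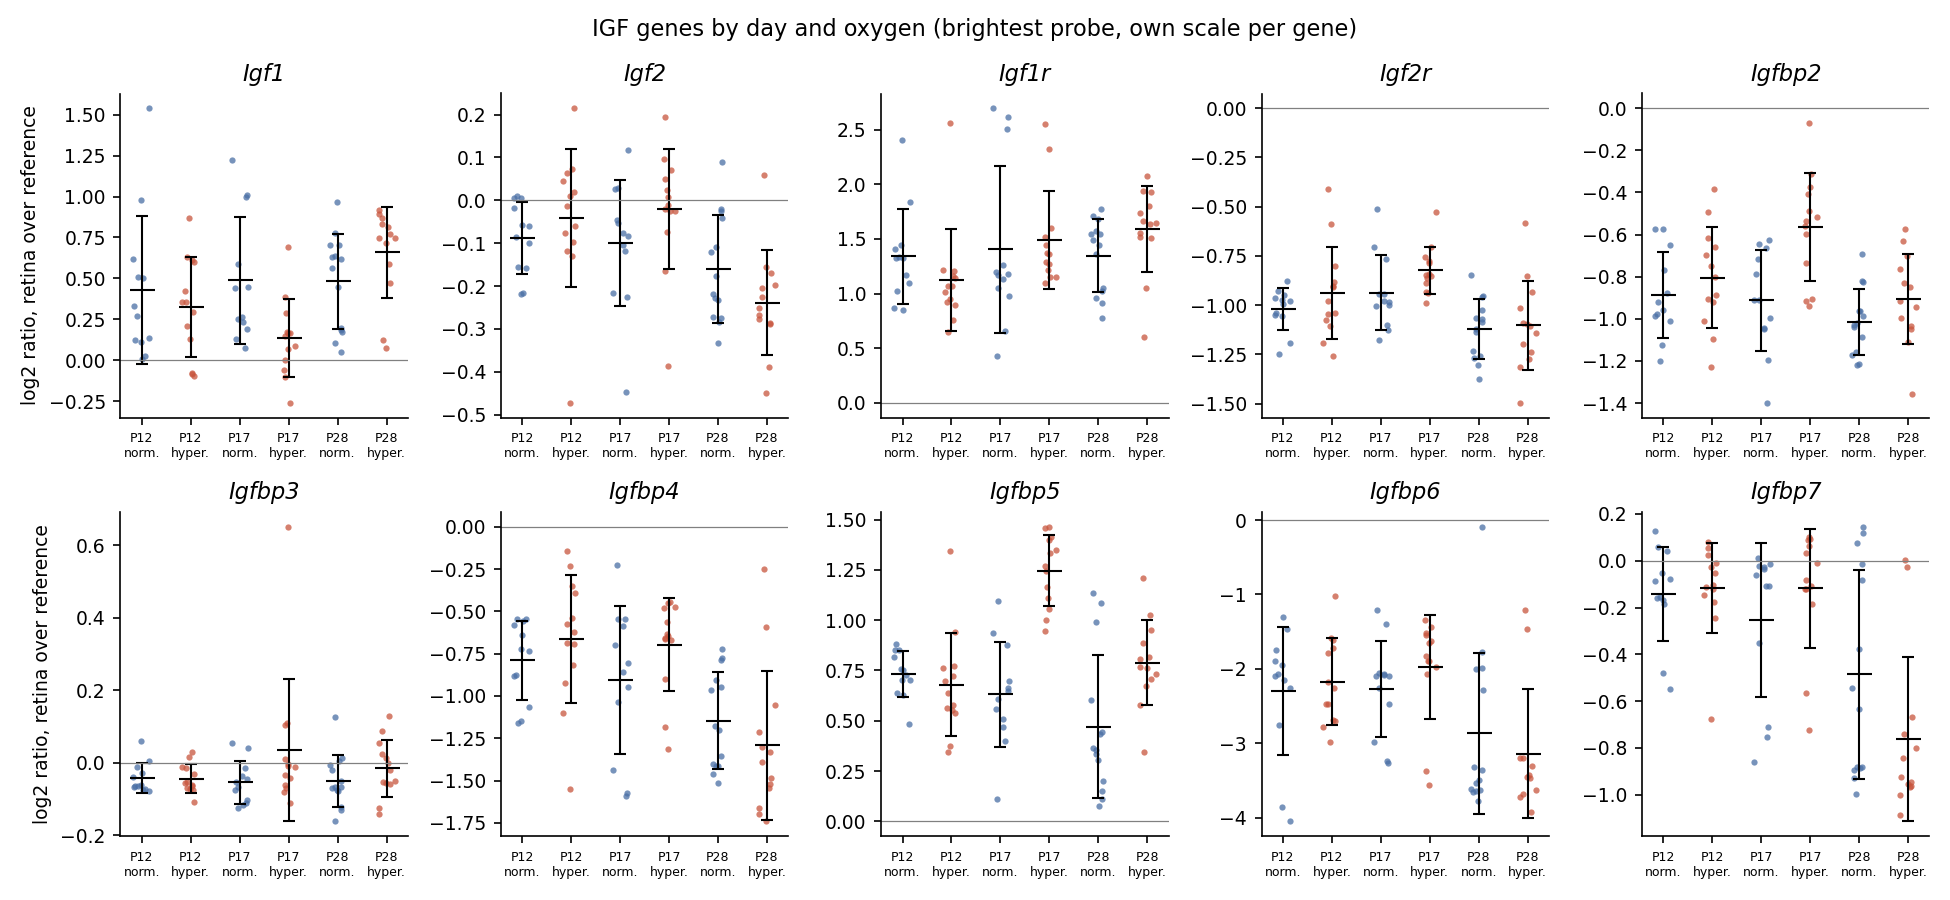
Log2 ratio of retina over reference for the brightest probe of each of the 10 IGF genes, a panel per gene with its own y axis, a point per mouse and bars for the mean and SD by day and oxygen group. *Igfbp5* stands apart in the P17 OIR mice. The medians of *Igfbp4*, *Igfbp6* and *Igfbp7* are lower in both P28 groups than in the groups of P12 and P17, but the ranges overlap. The lowest *Igfbp6* value, −4.05, is that of a P12 control mouse. Of the P28 arrays, 9 of 14 control and 11 of 13 OIR arrays lay on the brighter slides 4, 5, 6 and 9.

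Ages were compared within each oxygen group. In control mice by limma no IGF gene was called from P12 to P17, where 1.28% of all probes were called and 0 of the 10 members had an unadjusted p under 0.05, and the largest difference was −0.11, of *Igfbp4* (SE 0.141, adjusted p = 0.952). In OIR mice from P12 to P17, *Igfbp5* rose by 0.57 (SE 0.095, adjusted p = 1.12e-05), with all 13 mice of P17 above the P12 median. It was 1 of 10 members called, where 3.43% of all probes were called. *Igf1r* had a difference of 0.36 (SE 0.188, adjusted p = 0.505), with 13 of 13 mice of P17 above the P12 median.

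From P17 to P28 in control mice no brightest probe of a member was called by limma, where 13.4% of all probes were called, and 1 of 10, that of *Igf2r*, had an unadjusted p under 0.05. The dimmer *Igf1* probes A_55_P2031631 and A_55_P2085984 fell by 0.28 (adjusted p = 2.31e-05) and 0.23 (adjusted p = 0.000578). In OIR mice 8 of 10 members were called from P17 to P28, but so were 40.6% of all probes and 51.4% of all genes. *Igf1* rose by 0.52 on its brightest probe, while A_55_P2031631 fell by 0.31 and A_55_P2085984 by 0.35. *Igf2* fell by 0.22, *Igf2r* by 0.28, *Igfbp2* by 0.34, *Igfbp4* by 0.59, *Igfbp5* by 0.46, *Igfbp6* by 1.16 and *Igfbp7* by 0.64. The adjusted p of these 8 genes ran from 1.45e-05 (*Igfbp7*) to 0.00222 (*Igfbp6*). *Igf1r* and *Igfbp3* were not called. *Igfbp4* and *Igfbp7* were each well above background on 5 of 13 OIR arrays of P17 and on 11 of 13 of P28. Most of their P17 values thus lay near the limit of detection, where the offset draws ratios toward 0. For *Igfbp7*, OIR mice ranged from −0.72 over −0.08 to 0.10 on P17 and from −1.09 over −0.92 to 0.003 on P28. For *Igfbp6* they ranged from −3.56 over −1.83 to −1.34 and from −3.92 over −3.44 to −1.21. In both genes the P28 mice reached lower but covered most of the P17 range.

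Marker lists of other cells were looked at in the same comparison, where 51.4% of all genes were called. Of 6 fibroblast and scleral markers 6 fell, with a median difference of −0.96, and of 9 mural cell markers 7 fell and 1 rose, with a median of −0.68. Of 8 lens markers 5 rose, with a median of 1.02. Other lists differed as well. Of 7 rod markers 5 fell and 1 rose, with a median of −0.74. Of 7 Mueller glia markers 4 rose and 1 fell, with a median of 0.54. Of 11 endothelial markers 5 fell and 2 rose, with a median of −0.04. The list means in OIR mice ran from −3.82 to −2.32 on P17 and −4.70 to −2.63 on P28 for fibroblasts and sclera, from −0.54 to −0.04 and −1.16 to −0.44 for mural cells, and from 0.00041 to 0.79 and 0.017 to 2.76 for the lens. Array brightness differed as well, with 11 of 13 OIR arrays of P28 and 2 of 13 of P17 on slides 4, 5, 6 and 9. The part of these cells in the age differences was not tested. Brightness went largely with the day in OIR mice, so its part cannot be told apart from that of age. The values of 2 fits that allow for brightness are given. With the number of probes well above background as a covariate, 2 of the 10 members were called, *Igfbp5* (−0.71, SE 0.091, adjusted p = 2.32e-08) and *Igf1r* (−0.58, SE 0.142, adjusted p = 0.00254). The share of all probes called fell as well, from 40.6% to 12.6%. Without the 4 slides, which left 11 OIR mice of P17 and 2 of P28, 0.656% of all probes were called. Of the members *Igfbp5* alone was called (−0.71, SE 0.126, adjusted p = 0.00213). *Igfbp4* then gave 0.18, *Igfbp6* 0.37 and *Igfbp7* 0.01, on the other side of 0. In the reference channel alone, which holds the same RNA on every array, 3529 probes were called in this comparison and 213 in that of the control mice, against at most 4 in the other 8 comparisons. The fall of *Igfbp5* in OIR mice from P17 to P28 was called under all 13 alternatives, with values from −1.29 to −0.32.

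**Figure D5:**
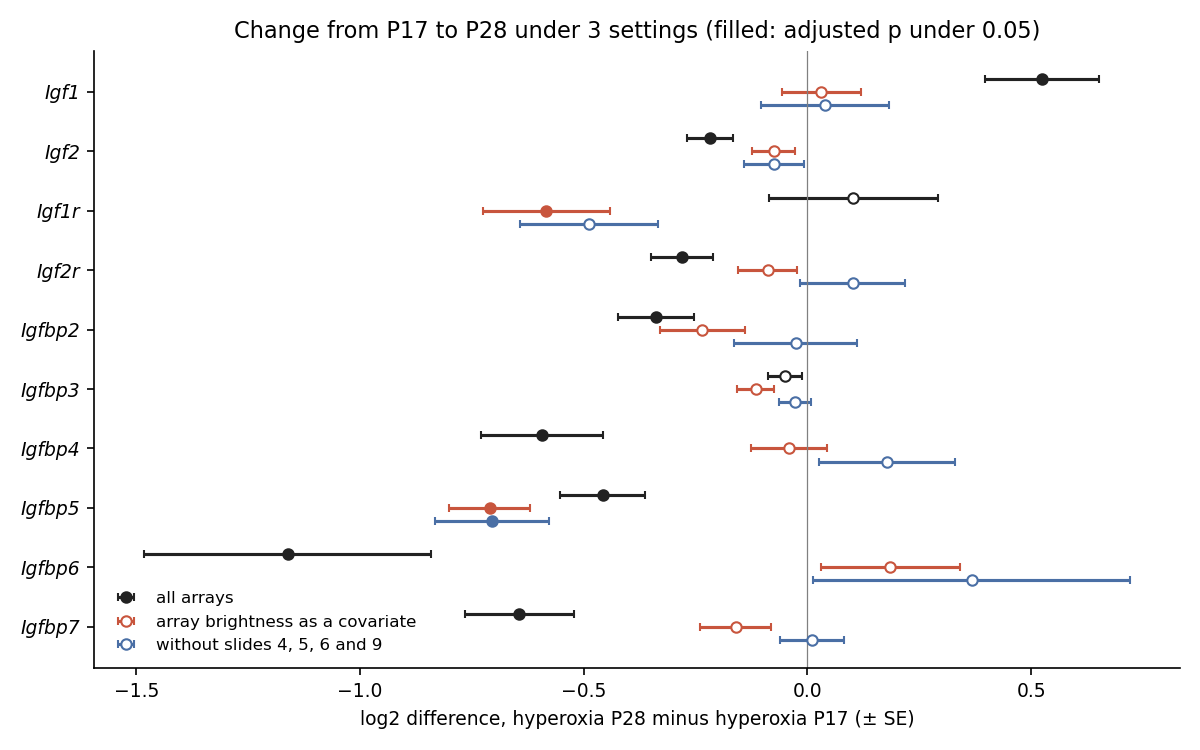
Log2 difference of OIR mice of P28 minus OIR mice of P17 on the x axis with its SE for the 10 IGF genes, over all arrays, with array brightness as a covariate and without slides 4, 5, 6 and 9; filled points have an adjusted p under 0.05. *Igfbp5* is filled under all 3 settings, at −0.46, −0.71 and −0.71.

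Other genes of the pathway were taken from lists of insulin and its receptors, IGFBP-related proteins and IGFBP proteases, the growth hormone axis, receptor adaptors, PI3K, AKT, mTOR and FOXO, RAS and MAP kinases, and the *Igf2* mRNA-binding proteins, 68 measured genes of 69 listed. By limma none was called on P12 or P28, where 2 and 7 had an unadjusted p under 0.05. On P17 3 of 68 rose and none fell, where 486 of 21154 genes, 2.3%, were called. An unadjusted p under 0.05 by limma was found for 20 of the 68 on P17, and for 5772 of all 55681 probes. The median difference over the 68 genes was 0.012, and over all genes −0.0024.

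*Esm1*, which encodes the proteoglycan endocan of endothelial tip cells, ranged from −2.24 over −1.18 to −0.47 in control mice of P17 and from −0.47 over 0.22 to 1.27 in OIR mice. It rose by 1.56 (SE 0.197, adjusted p = 2.41e-05). *Esm1* was well above background in 1 of 12 control and 13 of 13 OIR mice of P17, and in none of the P12 mice, so the control level is near a limit. In the retina channel alone, control arrays were set to the lowest signal well above background, or to their own value where that was higher. The mean of OIR mice was then 3.1-fold that of control mice. This is a measure other than the ratio above and is given without an interval. *Eif4ebp1*, which encodes the translation inhibitor 4E-BP1 downstream of mTOR, rose by 1.04 (SE 0.231, adjusted p = 0.0190). *Ccn2*, which encodes connective tissue growth factor, rose by 0.63 (SE 0.154, adjusted p = 0.0415). Without slides 4, 5, 6 and 9, *Esm1* and *Htra1*, a serine protease that cleaves binding proteins, were called on P17 and the other 2 were not. Over the 12 alternatives run for these lists, between 1 and 12 of the 68 genes were called on P17, *Esm1* in each. In 5 of them some were called as lower. The deposited ratios gave 7 higher and 4 lower, the lower ones being *Pappa2*, *Pdpk1*, *Rheb* and *Deptor*. Array weights gave 7 higher and 2 lower, the retina channel alone 5 and 2, the brightness covariate 9 and 3, and 1 fit over all groups 4 and 1. The receptor adaptor *Shc1* had a difference of 0.34 (SE 0.086, adjusted p = 0.0510) and was called as higher under 7 of the 12 alternatives. On P28 *Htra1* was called as higher in the deposited ratios. *Htra1* and *Ccn2* were called as higher with array weights, in the retina channel alone and with the brightness covariate. The *Ccn2* means of that day were −1.17 in control and −0.59 in OIR mice. Without slides 4, 5, 6 and 9, 7 genes were called as higher and 3 as lower, where 8.2% of all probes were called. The genes named from these alternatives were chosen after their values were seen. None of the 4 insulin and insulin receptor genes, the 5 growth hormone axis genes or the 9 RAS and MAP kinase genes was called on P17 under any of these alternatives.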

How the data were processed

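Retina arrays of 77 mice were analyzed, 1 per mouse, grouped by the day and oxygen status in the labels. Per the file headers, the authors scanned 2-color arrays and extracted median signal and background intensity values, and outlier and background flags, with Feature Extraction 10.7.3.1. The deposited log2 table equals the log2 ratio of the processed Cy3 to Cy5 signals within 0.001 on every array, with column medians from −0.127 to 0.00993. The settings of the GeneSpring normalization are not given in the sources used here.

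Median signals were corrected with normexp (offset 50) and loess in limma 3.58.1 under R 4.3.3. Spots flagged as outliers (0.592 to 0.951% per array) and controls were left out, and spots of a probe were averaged. No probe was saturated. Oxygen groups were compared per day with lmFit and eBayes. Contrasts that span days were taken from 1 model of all 6 groups. Names and sequences came from RefSeq tables of GRCm38.p6. All 10 members are named, with pathway genes called in an oxygen comparison and the 3 genes most correlated with a called member. The members and lists were chosen with earlier results of these data known. Alternatives were the deposited ratios, no background subtraction, an offset of 0, slide as a block, a filter on dim probes, trend and robust estimation, array weights, the retina channel alone, outliers kept, probes averaged and other samples in the fit. Array brightness as a covariate, slide subsets and a fit without 1 outlying array for *Igfbp6* were added after the data were seen. The number of arrays limits the precision. The calculations were tested on simulated data. One marker gene is not reported here.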

Additional observations from a re-analysis of the deposited data

Results flagged for a closer look

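The oxygen difference of *Igfbp5* was not the same on P12 and P17. It was −0.05 on P12 and 0.62 on P17, and the change of 0.67 (SE 0.137, adjusted p = 0.00245) was called in the model over all 6 groups. It was called under all 12 alternatives, with values from 0.55 to 1.16.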

How the results depend on the processing

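On P17, 1 member was called, and 2 in the deposited ratios, with an offset of 0, with array weights and with 1 fit over all groups, where *Igfbp2* joined *Igfbp5*. There were 3 in the retina channel alone and 3 with array brightness as a covariate, where *Igf1* joined as well. On P28, 0 members were called, and 1 without slides 4, 5, 6 and 9, *Igfbp4*, at 0.41, where the value over all arrays was −0.15 and 8.2% of all probes were called, against 0.0611%. From P17 to P28, 8 members were called in OIR mice, but 4 with slide as a block, 2 with array brightness as a covariate and 1 without slides 4, 5, 6 and 9. In that comparison *Igf2r* became 0.10, *Igfbp4* 0.18, *Igfbp6* 0.37 and *Igfbp7* 0.011 without these slides. With brightness as a covariate *Igf1r* became −0.58 and *Igfbp6* 0.19, *Igf2r* was 0.019 in the retina channel alone, and *Igf1* was −0.039 with probes averaged. In control mice from P17 to P28 no member was called, but 5 with array weights, 3 with array brightness as a covariate, and 1 each in the deposited ratios, with an offset of 0, with the filter on dim probes, in the retina channel alone and with probes averaged. The share of all probes called there was 13.4%, but 35.6% with array weights, 11.9% with the covariate and 26.6% of those left by the filter. In OIR mice from P12 to P17, 1 member was called, but 4 in the deposited ratios, 3 with an offset of 0, 3 with slide as a block, 3 in the retina channel alone and 2 without slides 4, 5, 6 and 9, where 5.71 to 8.37% of all probes were called, against 3.43%. The change from P17 to P28 had 0 members called, and 1 in the retina channel alone, *Igfbp5*. The cause of these shifts was not tested. Over all probes, 631 were called on P17, but 1471 in the deposited ratios, 1572 with array weights, 1722 in the retina channel alone and 2040 with array brightness as a covariate. In OIR mice from P17 to P28, 22599 were called, but 9574 with slide as a block, 7007 with the covariate and 365 without slides 4, 5, 6 and 9. Genes not well above background, above all *Igfbp3*, are limited by signal. No paired analysis was possible because no mouse number occurs in more than 1 group.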
